A study of Mus musculus with 8 samples.

Results

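The lysosomal glycosidases, sulfatases and lipid hydrolases, with the activator proteins and the few peptidases and phosphatases listed with them, were described in primary vascular smooth muscle cells of the mouse. The members were the rows of the gene count table for 35 listed genes that held at least 10 counts in at least 4 libraries. That rule kept 34 of the 30660 gene identifiers in the table. The listed gene left out was Acp5, tartrate-resistant acid phosphatase, with 2, 10, 8 and 9 counts in controls and 6, 15, 15 and 8 in knockdowns. Each of the 34 genes had at least 338 counts in every library, so no member entered through 1 group only. Bulk RNA sequencing of total RNA gave 8 libraries. The 4 control libraries, named nc, came from cells labelled WT for genotype and treatment. The other 4, named sisox6, came from cells labelled as a knockdown of Sox6, the gene of a SoxD transcription factor. The sources used here give neither the vessel, the strain and the age of the animals nor the knockdown reagent and its duration. They also do not say whether replicates were separate cultures or animals, so the p-values cover the spread among these 8 libraries, possibly a technical one. The series title links Sox6 to the phenotype of these cells, to autophagy and to blood pressure. Total counts ran from 37604102 to 49393224 per library. Sox6 itself had 6, 10, 6 and 4 counts in controls and 2, 4, 0 and 0 in knockdowns, a ratio of 0.221 in CPM by total counts (95% exact interval 0.0788 to 0.582, counting error only, exact two-sided permutation p = 0.0286, the smallest that 4 against 4 libraries allow). The 2 libraries at 0 allow up to 0.0798 and 0.0641 CPM (3 counts). Every Sox6 count was an even number. If both reads of a pair were counted, the interval is too narrow and these limits are too low.

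Lysosomal hydrolases are glycoproteins made in the endoplasmic reticulum, most of which are tagged with mannose phosphate and carried by receptors to the lysosome, where the acid interior activates them. Each acts on a narrow set of bonds, and long chains are taken apart by several enzymes acting in a fixed order. Inherited loss of a single one usually causes a storage disease in which its substrate accumulates. In the vessel wall the substrates include the sulfated glycosaminoglycans of the matrix, membrane sphingolipids, and cholesteryl esters taken up with lipoproteins. Many genes of this kind carry the CLEAR sequence, built around CACGTG, which the transcription factors TFEB, TFE3 and MITF bind.

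The CLEAR core was therefore looked up in the promoters. It was not used to choose the genes. Being a known feature of such genes, it was likely from the start to be more frequent in them than in all genes. RefSeq promoter windows (build GRCm38.p6), which run from 250 bases before to 50 bases after a start site, were matched by symbol for 30 of the 34 genes. Asah1, Galns, Aga and Hgsnat were not matched. The palindrome CACGTG was present in 8 of the 30 genes (26.7%), against 11.4% of the 10948 tested genes with such windows. In all 8 it extended to TCACGTG on one strand or the other, which 6.75% of the tested genes with windows held. The longer letters contain the shorter ones, both strands were searched, and a match is a description of letters and not of binding. The 46-base stretches around each copy are shown 5′ to 3′ on the strand of the gene, with CACGTG in capitals, because these 8 genes carried the sequence and differed in how their transcripts changed.
Arsa (chr15:89477415-89477460, minus strand): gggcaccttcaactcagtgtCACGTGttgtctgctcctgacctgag
Gaa (chr11:119267803-119267848, plus strand): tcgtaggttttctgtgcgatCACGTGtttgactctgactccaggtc
Gla, nearer copy (chrX:134601174-134601219, minus strand): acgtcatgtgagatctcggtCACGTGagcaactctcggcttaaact
Gla, farther copy (chrX:134601207-134601252, minus strand): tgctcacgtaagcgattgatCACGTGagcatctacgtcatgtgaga
Glb1 (chr9:114401010-114401055, plus strand): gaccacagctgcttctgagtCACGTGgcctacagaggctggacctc
Naglu (chr11:101070001-101070046, plus strand): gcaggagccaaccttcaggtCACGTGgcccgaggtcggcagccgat
Lgmn (chr12:102439116-102439161, minus strand): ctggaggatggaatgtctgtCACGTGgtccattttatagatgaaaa
Sgsh (chr11:119355514-119355559, minus strand): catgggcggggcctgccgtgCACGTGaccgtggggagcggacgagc
Sumf1 (chr6:108185569-108185614, minus strand): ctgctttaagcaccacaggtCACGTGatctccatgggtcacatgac
The copies lay from 11 bases (Sumf1) to 227 bases (the farther Gla copy) before a start site. Gla, alpha-galactosidase A, carried 2 copies, at 194 and 227 bases, and the other 7 genes carried 1 each. The Lgmn copy lay 49 bases before a second RefSeq start, and no copy lay in the window of its other start. Transcripts of Arsa, Gaa, Gla and Glb1 rose in the knockdown, that of Naglu fell, and those of Lgmn, Sgsh and Sumf1 did not pass the test, with values given below. Of the 30 genes with a window 19 rose, 3 fell and 8 did not pass, so genes with the letters were found among all 3 outcomes.

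Most transcripts of the lysosomal hydrolases were higher in the Sox6 knockdown, each by a small amount, and 3 were lower. By edgeR's quasi-likelihood test, fitted over all 16150 genes that passed the filter on low counts, 22 of the 34 rose, 3 fell and 9 did not pass an adjusted p of 0.05. Over all tested genes 51.5% passed, 25.4% as higher and 26.0% as lower, and among the 9458 genes at least as abundant as the least abundant member 27.8% were higher and 33.3% lower. The changes upward ran from 7.92% for Gusb to 46.7% for Galc, and with TMM scaling none of the 34 changed by over 1.5 fold. Of all tested genes, at any abundance, 2885 (17.9%) both changed by over 1.5 fold and had an adjusted p under 0.05. The median log2 fold change, given throughout as knockdown minus control, was 0.24 over the 34 genes and 0.02 over all tested genes. Levels are given as CPM, read counts relative to the size of the library, scaled by TMM, which aligns libraries on the bulk of their genes. Scaled by total counts, the median was 0.34 over the members and 0.12 over all genes, 26 members rose and 3 fell, and all called genes split into 5926 higher and 3045 lower in place of 4105 and 4206. With that scaling Galc and Fuca2 did exceed 1.5 fold (log2 fold changes of 0.65 and 0.62), and with upper quartile scaling Galc did (0.59). The distance between the 2 medians was 0.22 with TMM and with total counts, as it must be, since a change of scaling shifts all genes by nearly the same amount. In 20 of the 34 genes all knockdown libraries lay above all controls, and in 4 all lay below, against 22.8% and 24.0% of all tested genes. These are whole-culture RNA measurements, in which fewer cells of a type and less RNA per cell cannot be told apart. In the same libraries 10 markers of heart and striated muscle fell together, from a summed 298 to 421 CPM in controls to 31.9 to 113 CPM in knockdowns, and their part in these counts was not tested.

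**Figure D1:**
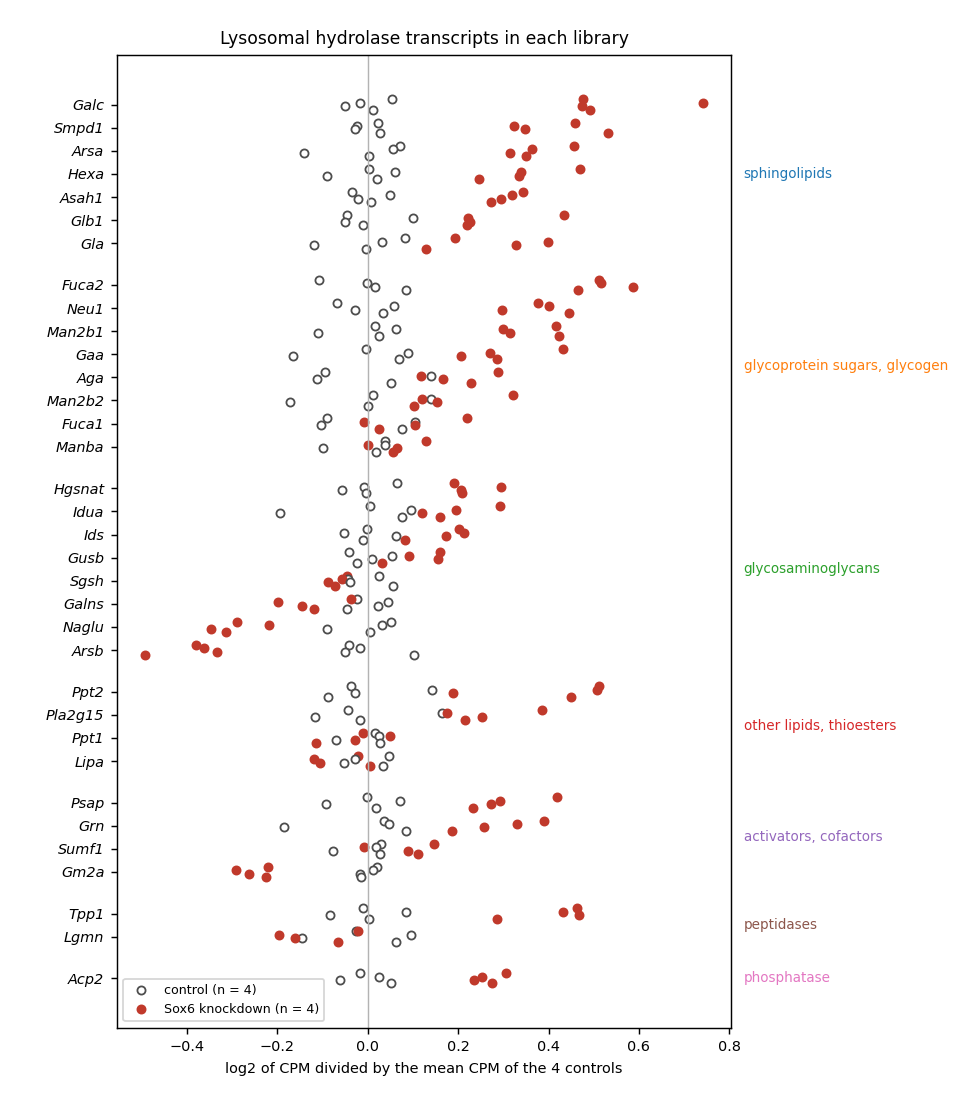
Each point is 1 library, placed by the log2 of its CPM divided by the mean CPM of the 4 controls, for the 34 genes grouped by substrate. All 7 sphingolipid enzymes have every knockdown library to the right of every control. Arsb, Naglu and Gm2a have every knockdown library to the left, as does Sgsh by a very narrow margin.

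One library in each group often stood at its edge. Control replicate 3 was the lowest control for 26 of the 34 genes, and knockdown replicate 1 was the highest knockdown for 21 of them. The median over the genes of log2 CPM relative to the control mean was 0.00, 0.05, -0.07 and 0.02 in controls 1 to 4 and 0.30, 0.22, 0.20 and 0.20 in knockdowns 1 to 4, so the groups did not overlap. Without control replicate 3 the counts were 20 higher and 4 lower, with Lgmn added to those that fell, and without knockdown replicate 1 they were 20 and 3. Gusb and Man2b2 were the 2 higher calls lost in each case.

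All 7 enzymes that break down sphingolipids rose, with a median log2 fold change of 0.35. Over all tested genes 25.4% were higher and 26.0% lower, shares that stand beside the count of every class below. The classes were drawn with earlier results known, and Gm2a, an activator for one of these enzymes, fell and was counted with the activators. Galc (ENSMUSG00000021003, chromosome 12, 98202294 to 98259459; all positions are mm10) encodes galactosylceramidase, which digests the galactolipids of myelin and other membranes. Its level was 12.5, 11.9, 11.6 and 12.1 CPM in the 4 controls and 16.7, 20.1, 16.7 and 16.9 CPM in the 4 knockdowns. Knockdown replicate 2 stood highest, and all 4 knockdowns lay above the controls (log2 fold change 0.55 ± 0.07 SE, adjusted p = 2.2e-05). This was the largest change among the members. Smpd1 (ENSMUSG00000037049, chromosome 7, 105554360 to 105558389), acid sphingomyelinase, splits sphingomyelin into ceramide and phosphocholine. It was at 67.6, 65.4, 65.2 and 67.8 CPM in controls and 91.4, 83.2, 84.6 and 96.1 CPM in knockdowns, with a gap between the groups wider than the whole control range (0.42 ± 0.05, adjusted p = 6.92e-06). Asah1, acid ceramidase, which takes the ceramide further to sphingosine, was at 188, 199.5, 190.0 and 194 CPM and 245, 241, 237 and 233 CPM (0.31 ± 0.04, adjusted p = 8.01e-06). Both groups of Asah1 were tight and apart.

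The enzymes that shorten gangliosides and globosides and the sulfatase of sulfatide rose as well. Glb1, acid beta-galactosidase, whose activity is also the usual stain for senescent cells, was at 51.4, 56.8, 51.2 and 52.6 CPM in controls and 71.6, 61.8, 62.0 and 61.8 CPM in knockdowns (0.28 ± 0.06, adjusted p = 0.000778). Its exons overlap those of Tmppe on the same strand over 5.49% of their length, with 1781 control and 1765 knockdown counts for Tmppe against 9196 and 11774 for Glb1. Knockdown replicate 1 was well above the other knockdowns, which lay close together and above every control. Hexa, the alpha subunit of beta-hexosaminidase A, the enzyme lost in Tay-Sachs disease, was at 121, 126, 114 and 123 CPM and 168, 153, 152 and 144 CPM (0.35 ± 0.05, adjusted p = 4.45e-05). Exons of Hexa overlap those of Tmem202 on the other strand over 12.8% of their length, a gene with 69 control and 102 knockdown counts. Gla, which removes galactose from globotriaosylceramide and is lost in Fabry disease, had the largest p of this class, with 40.6, 39.2, 35.3 and 38.2 CPM in controls and 43.8, 50.5, 48.1 and 41.9 CPM in knockdowns (0.27 ± 0.06, adjusted p = 0.00271). Its groups still did not overlap. Arsa, arylsulfatase A, which removes the sulfate of sulfatide, was at 69.0, 68.3, 59.6 and 65.8 CPM and 90.1, 84.5, 81.8 and 83.7 CPM (0.37 ± 0.05, adjusted p = 3.29e-05). Exons of Arsa overlap those of C230037L18Rik on the other strand over 18.8% of their length, a gene with 62 control and 142 knockdown counts against 11376 and 15594 for Arsa.

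Of the 4 proteins that assist these enzymes, 2 rose, 1 fell and 1 did not pass. Psap (ENSMUSG00000004207, chromosome 10, 60277627 to 60302597) encodes prosaposin, the precursor of the saposins that lift sphingolipids out of membranes for the enzymes. It was at 1015, 1066, 952 and 1028 CPM in controls and 1356, 1244, 1227 and 1194 CPM in knockdowns, all above the controls (0.31 ± 0.05, adjusted p = 0.000112). Gm2a (ENSMUSG00000000594, chromosome 11, 55098115 to 55113029), the activator that presents ganglioside GM2 to beta-hexosaminidase A, went the other way. Its level was 78.8, 78.2, 76.7 and 76.9 CPM in controls and 66.6, 63.5, 64.7 and 66.5 CPM in knockdowns, and it fell by 15.9% with both groups tight and apart (-0.25 ± 0.04, adjusted p = 9.4e-05). Grn, progranulin, a secreted precursor whose granulin peptides act in the lysosome, rose (0.29 ± 0.06, adjusted p = 0.000803) and its knockdowns all lay above the controls. Sumf1 works in the endoplasmic reticulum, where it makes the formylglycine that all sulfatases need. Its transcript was at 71.9, 71.4, 66.8 and 71.9 CPM and 78.1, 70.1, 75.0 and 76.1 CPM, with knockdown replicate 2 inside the control range (0.09, adjusted p = 0.132). Scaling by total counts or by the upper quartile brought Sumf1 past the threshold (adjusted p = 0.00207 and 0.0284). It also passed once knockdown replicate 2 was left out (adjusted p = 0.0416), within a range of 0.00207 to 0.316 over its 18 alternatives.

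Of 8 enzymes for the sugars of glycoproteins and glycogen, 6 rose, none fell and 2 did not pass, with a median log2 fold change of 0.25. That is 75% higher, beside 25.4% of all tested genes. Fuca2 (ENSMUSG00000019810, chromosome 10, 13499540 to 13519035), the fucosidase first known from plasma, was at 23.6, 25.4, 25.7 and 26.9 CPM in controls and 36.2, 36.3, 38.2 and 35.0 CPM in knockdowns. Its change (0.52 ± 0.05, adjusted p = 2.01e-06) had the smallest p of all 34 genes. Fuca1, the lysosomal fucosidase, was at 58.1, 66.6, 57.6 and 65.2 CPM and 72.0, 61.5, 66.6 and 63.0 CPM, and its groups overlapped (0.09, adjusted p = 0.248). It passed with total count scaling only (adjusted p = 0.0126, against 0.0126 to 0.583 over all alternatives). Neu1, the sialidase that works in a complex with beta-galactosidase and cathepsin A, rose (0.38 ± 0.05, adjusted p = 9.31e-06). So did Gaa, acid alpha-glucosidase, which digests glycogen and is lost in Pompe disease, from 246 ± 19.1 to 304 ± 20.5 CPM (SD, n = 4 each; 0.30 ± 0.06, adjusted p = 0.000633). In both genes the groups lay apart.

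Of the 3 mannosidases 2 rose and 1 did not pass. Man2b1, the main lysosomal alpha-mannosidase, rose with all knockdowns above the controls (0.37 ± 0.05, adjusted p = 2.15e-05). Man2b2, which cuts a core mannose bond, was at 101, 110.2, 88.8 and 100.1 CPM in controls and 125, 109, 111 and 107 CPM in knockdowns. Control replicate 2 lay inside the knockdown range. The Man2b2 call (0.18 ± 0.06, adjusted p = 0.03) was lost when control replicate 1, 3 or 4 was left out (adjusted p = 0.06, 0.0909 and 0.0619), and also when knockdown replicate 1 was (adjusted p = 0.099). Manba, beta-mannosidase, which cuts the last mannose bond, was at 54.1, 54.2, 49.2 and 53.4 CPM and 57.7, 52.7, 55.1 and 54.8 CPM, overlapping ranges (0.06, adjusted p = 0.275). It passed with total count scaling only (adjusted p = 0.00535, against 0.00535 to 0.629 over all alternatives). Aga, aspartylglucosaminidase, which frees the last sugar from asparagine, rose (0.20 ± 0.06, adjusted p = 0.011) although control replicate 2 lay within the knockdown range.

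Of the 8 enzymes of glycosaminoglycan breakdown 3 rose, 2 fell and 3 did not pass, shares of 37.5% and 25% beside the 25.4% and 26.0% of all tested genes, and the call of Gusb, one of the 3, was lost under 10 of 18 alternatives. The class had a median log2 fold change of 0.02, within a range of -0.39 to 0.23, beside a median of 0.02 over all tested genes. In heparan sulfate breakdown Ids and Idua act on the iduronic acid end. Ids, iduronate sulfatase, the enzyme lost in Hunter syndrome, rose (0.17 ± 0.05, adjusted p = 0.014) with its groups apart. Idua, iduronidase, was at 8.69, 9.25, 7.58 and 9.13 CPM in controls and 10.6, 9.92, 9.42 and 9.68 CPM in knockdowns. Its knockdowns all lay above its controls, yet it did not pass (0.20, adjusted p = 0.0655), but did when scaled by total counts or by the upper quartile (adjusted p = 0.00657 and 0.028, within 0.00657 to 0.194 over all alternatives). Its exons overlap those of Dgkq and Slc26a1 on the other strand over 6.30% of their length, and Dgkq had 1575 control and 1931 knockdown counts against 1498 and 1818 for Idua. Sgsh, Hgsnat and Naglu then remove the sulfated glucosamine in 3 successive steps, of which Hgsnat rose, Naglu fell and Sgsh did not pass.

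Sgsh, the sulfamidase of the first of these steps, was at 29.7, 28.3, 28.4 and 30.4 CPM in controls and 28.3, 28.1, 27.5 and 27.8 CPM in knockdowns. All knockdowns lay below all controls by a margin that the rounding hides, and the gene did not pass (-0.07, adjusted p = 0.288). Its exons overlap those of Card14 on the other strand over 21.6% of their length, with 48 and 62 counts for Card14 over the groups against 5060 and 5118 for Sgsh. Hgsnat, the acetyltransferase of the membrane that acetylates the freed glucosamine, was at 43.3, 41.1, 39.7 and 41.2 CPM and 47.2, 50.7, 47.7 and 47.8 CPM, higher in every knockdown (0.23 ± 0.05, adjusted p = 0.000763). Naglu (ENSMUSG00000001751, chromosome 11, 101070012 to 101077672), which removes that acetylated sugar, was at 66.8, 65.9, 60.6 and 64.7 CPM in controls and 52.8, 55.4, 50.7 and 51.9 CPM in knockdowns, and it fell by 18.2% with the groups apart (-0.29 ± 0.05, adjusted p = 0.000109). Gusb, beta-glucuronidase, which takes off glucuronic acid, was at 76.0, 81.1, 78.6 and 76.9 CPM and 87.3, 83.2, 87.0 and 79.9 CPM, where knockdown replicate 4 lay inside the control range. The alternatives that ended the Gusb call (0.11 ± 0.04, adjusted p = 0.0465) included no filter on low counts (adjusted p = 0.118), DESeq2 (adjusted p = 0.0553) and the fit without control replicate 1, which gave the highest adjusted p (0.136).

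Of the sulfatases that act on the galactosamine or galactose of these chains, Arsb fell and Galns did not pass. Arsb (ENSMUSG00000042082, chromosome 13, 93771630 to 93943016), arylsulfatase B, removes a sulfate of N-acetylgalactosamine in dermatan and chondroitin sulfate. Its level was 46.8, 47.5, 46.5 and 51.6 CPM in controls and 37.0, 37.4, 38.2 and 34.2 CPM in knockdowns. All knockdowns lay below all controls, and the level fell by 23.7% (-0.39 ± 0.05, adjusted p = 1.94e-05), the largest of the 3 decreases. Its exons overlap those of 2 genes on the other strand over 39.9% of their length. Of these Gm47210 had 2 and 4 counts over the groups against 8329 and 6712 for Arsb, and Gm26527 was missing from the deposited counts. Galns, which acts on another sulfate of the same sugars and of galactose in keratan sulfate, was at 14.6, 15.3, 15.0 and 14.3 CPM and 14.4, 12.9, 13.4 and 13.6 CPM, with knockdown replicate 1 inside the control range (-0.12, adjusted p = 0.117). Counted by chemistry instead of substrate, the 5 sulfatases held 2 that rose (Arsa and Ids), 1 that fell (Arsb) and 2 that did not pass (Sgsh and Galns).

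**Figure D2:**
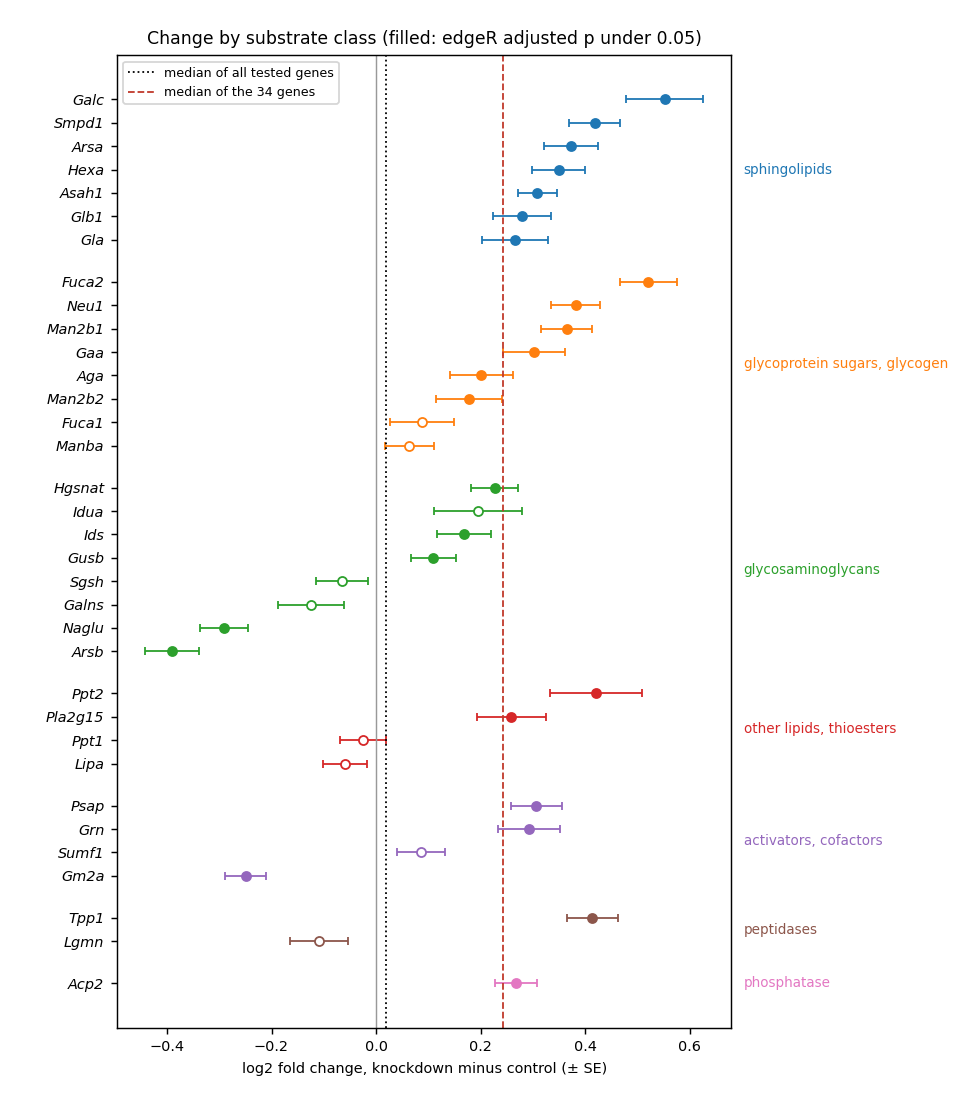
Points are fitted log2 fold changes, knockdown minus control, with bars of 1 SE, for the 34 genes by substrate class, filled where edgeR's adjusted p was under 0.05. The dotted line is the median of all tested genes (0.02) and the dashed line that of the 34 genes (0.24). The glycosaminoglycan enzymes lie on both sides of 0 and the sphingolipid enzymes all lie to the right.

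Among the enzymes for other lipids, 2 rose and 2 did not pass. Lipa, lysosomal acid lipase, which frees cholesterol and fatty acids from lipoprotein esters, was at 247, 235, 231 and 245 CPM in controls and 236, 220.4, 222 and 240.3 CPM in knockdowns. The ranges overlapped (-0.06 ± 0.04 SE, adjusted p = 0.261), and the sign turned with total count scaling (0.04). Pla2g15, the lysosomal phospholipase A, rose (0.26 ± 0.07, adjusted p = 0.00444) with its groups apart. Ppt1, the thioesterase that strips palmitate from proteins, was at 95.4, 95.9, 89.8 and 96.0 CPM and 93.6, 97.5, 92.4 and 87.0 CPM, which overlapped (-0.02, adjusted p = 0.668). Its exons overlap over 3.51% of their length with those of Cap1 on the other strand, which had 73271 and 72982 counts against 16338 and 16999 for Ppt1. Ppt2, its relative with a different substrate preference, was at 8.74, 9.89, 8.79 and 8.43 CPM in controls and 12.8, 12.7, 10.2 and 12.2 CPM in knockdowns, all above the controls (0.42 ± 0.09, adjusted p = 0.00102). Exons of Ppt2 overlap those of Gm20460, a gene on the same strand that was missing from the deposited counts, over 36.6% of their length. The counts of Ppt2 thus depend on how shared reads were assigned.

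Of the 2 peptidases 1 rose and 1 did not pass. Tpp1 (ENSMUSG00000030894, chromosome 7, 105744811 to 105752235), tripeptidyl peptidase, the enzyme lost in a form of Batten disease, was at 205, 219, 194 and 206 CPM in controls and 284, 278, 285 and 251 CPM in knockdowns, a rise by 33.2% with every knockdown above every control (0.41 ± 0.05, adjusted p = 6.94e-06). Lgmn, legumain, an asparaginyl endopeptidase that also processes cathepsins, was at 161, 175, 148 and 171 CPM and 161, 143, 146 and 156 CPM. Its ranges overlapped (-0.11, adjusted p = 0.114), and it passed as lower without control replicate 3 only (-0.16, adjusted p = 0.0178, against 0.0178 to 0.906 over all alternatives). Acp2, lysosomal acid phosphatase, was at 74.2, 76.4, 71.9 and 77.8 CPM in controls and 92.8, 89.5, 88.3 and 90.8 CPM in knockdowns, with the groups apart (0.27 ± 0.04, adjusted p = 7.44e-05). Its exons overlap those of Ddb2 on the other strand over 12.6% of their length, with 1589 and 2045 counts for Ddb2 against 13009 and 16572 for Acp2.

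Ratios of 2 transcripts within a library do not depend on the scaling between libraries, so 6 pairs of partners or relatives were compared in this way. The pairs were chosen after the values of their genes were seen, with one gene that rose set over one that fell or moved less, so the ratios are a description with no test. Hexa over its activator Gm2a was 1.54, 1.61, 1.48 and 1.60 in controls and 2.51, 2.41, 2.36 and 2.16 in knockdowns. Every knockdown exceeded every control, and the mean went from 1.56 ± 0.0601 to 2.36 ± 0.149 (SD, n = 4 each). Hgsnat over Naglu, successive steps on the same sugar, went from 0.641 ± 0.0138 to 0.917 ± 0.0191, and the 2 groups were far apart relative to their spread. Arsa over Arsb, sulfatases of the same family, was 1.48, 1.44, 1.28 and 1.28 in controls and 2.44, 2.26, 2.14 and 2.45 in knockdowns. This was the largest shift of the 6, 0.76 on the log2 scale. Fuca2 over Fuca1 went from 0.411 ± 0.0265 to 0.556 ± 0.0379, Man2b1 over Man2b2 from 0.684 ± 0.0274 to 0.779 ± 0.0520, and Ppt2 over Ppt1 from 0.0951 ± 0.00678 to 0.130 ± 0.0134. In all 6 the knockdowns lay above the controls, a direction that the choice of pairs fixed.

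**Figure D3:**
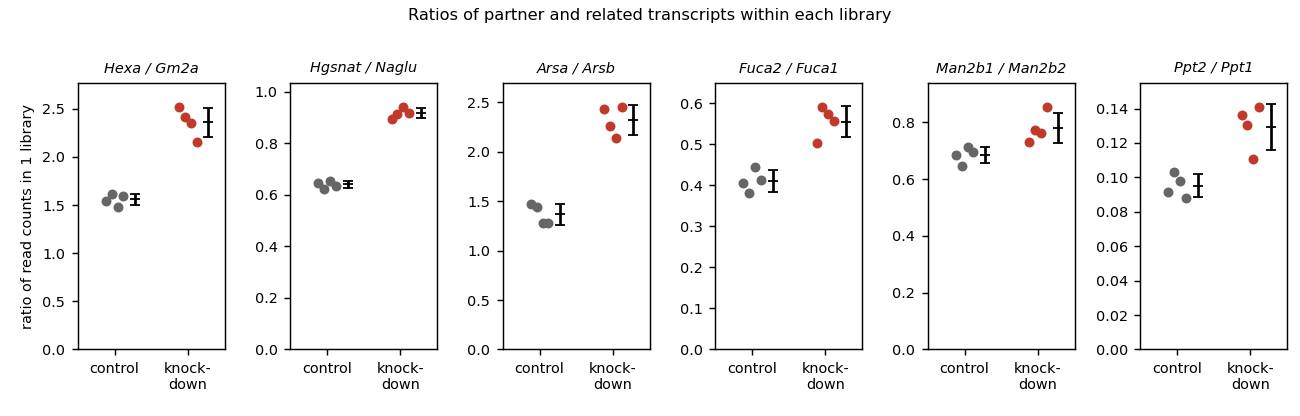
Each point is the ratio of the read counts of 2 genes in 1 library, with the mean and SD of 4 libraries beside each group, on axes that start at 0. In all 6 pairs the knockdown libraries lie above the control libraries, most widely for Arsa over Arsb.

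Levels between genes were compared per length, as TPM, computed from the counts and the joint exon length of each gene. TPM sums to the same total in every library, and its differences between groups lay above the TMM values. They lay below those scaled by total counts, where the median of all genes was 0.12. Sgsh, for example, had means of 22.25 TPM in controls and 22.19 TPM in knockdowns. Its log2 fold change was -0.07 with TMM and 0.04 by total counts. Psap was far above the rest, at 1244 ± 42.4 TPM in controls and 1605 ± 68.0 TPM in knockdowns (SD, n = 4 each). It made up 33.1 ± 0.177% of the summed TPM of the 34 genes in controls and 34.9 ± 0.481% in knockdowns. Grn (299 ± 21.3 TPM), Lgmn (237 ± 14.7), Hexa (204 ± 6.38), Asah1 (191 ± 3.94) and Gaa (173 ± 11.4) followed in controls. In knockdowns the mean of Lgmn (229 ± 9.78 TPM) was below those of Hexa (271 ± 14.3 TPM) and Asah1 (247 ± 4.14 TPM). Idua (6.92 ± 0.530 TPM) and Galc (2.72 ± 0.0714 TPM) were the lowest, and the joint exon length of Galc, 14879 bases, includes every annotated transcript form and so lowers its value. Of the 33 pairs of neighbours in the control order, 15 overlapped between libraries and could not be ordered, among them Hexa with Asah1 and every neighbouring pair from Aga, at place 12, to Gusb, at place 19. Within that stretch Smpd1 was at 67.0 ± 1.42 TPM in controls and 93.4 ± 5.73 TPM in knockdowns, and Gm2a at 63.3 ± 0.637 and 55.6 ± 0.921 TPM. The 34 genes together summed to 3754 ± 126 TPM in controls and 4594 ± 131 TPM in knockdowns.

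**Figure D4:**
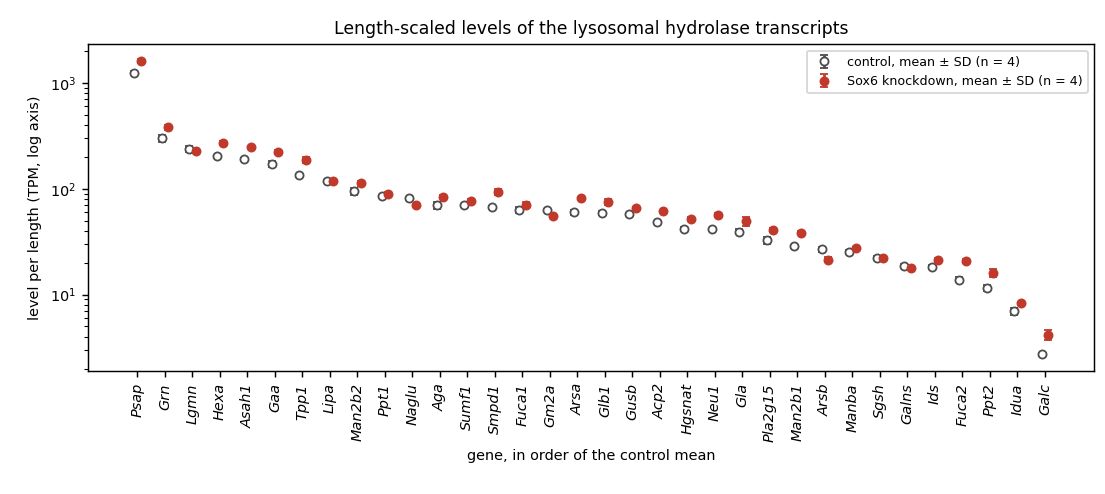
Points are mean TPM with SD over 4 libraries on a log axis, for the 34 genes in the order of their control means. Psap stands far above all others, Galc is lowest, and the knockdown mean is below the control mean for Lgmn, Naglu, Gm2a, Arsb, Sgsh and Galns and above it for the others. Lipa and Ppt1, just above on this scale, were just below with TMM scaling, and neither passed the test.

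Most genes on a further list of lysosomal hydrolases and binding proteins were also higher in the knockdown. Of the cathepsins that list held only cathepsin A. Transcripts of the factors that bind CLEAR did not pass the test. Of 25 further hydrolases and lysosomal binding proteins, 24 were tested, 17 rose, 2 fell and 5 did not pass, with a median log2 fold change of 0.29. That is 70.8% higher and 8.33% lower, beside the 25.4% and 26.0% of all tested genes. The smallest p-values were those of Glmp, a glycoprotein of the lysosomal membrane, from 85.9 ± 4.70 to 139 ± 4.42 CPM (SD, n = 4 each; 0.69, adjusted p = 2e-08), and Dpp7, a dipeptidyl peptidase, from 53.2 ± 4.45 to 87.3 ± 4.94 CPM (0.72, adjusted p = 2.45e-07). Both log2 fold changes exceeded that of every member. Of 13 genes that deliver hydrolases to the lysosome, 12 were tested, 5 rose, 1 fell and 6 did not pass, with a median of 0.10. These are 41.7% higher and 8.33% lower, beside 25.4% and 26.0% of all tested genes. Gnptg, a subunit of the phosphotransferase that starts the mannose phosphate tag, rose (0.46, adjusted p = 4.22e-05), as did the sorting adaptor Gga3 (0.34). M6pr, the cation-dependent mannose phosphate receptor, fell from 239 ± 6.00 to 208 ± 5.29 CPM (-0.21, adjusted p = 0.00037). Igf2r, the other mannose phosphate receptor, named here outside the rule and after its values were seen, rose from 176 ± 6.56 to 192 ± 7.13 CPM (0.13, adjusted p = 0.0211). Tfeb was at 22.4 ± 1.59 and 20.6 ± 0.616 CPM (-0.12, adjusted p = 0.123), Tfe3 at 84.7 ± 2.72 and 88.2 ± 3.45 CPM (0.06, adjusted p = 0.271) and Mitf at 5.75 ± 0.496 and 5.76 ± 0.455 CPM (0.01, adjusted p = 0.968), and none of them passed. Tfec was too low to be tested. These are transcript levels, and the place of the factors in the cell was not measured.

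Marker lists of cell types that the cultures could hold moved with the groups as follows. The 10 smooth muscle markers summed to 1803 to 2081 CPM in controls and 1315 to 1515 CPM in knockdowns, mostly Acta2 and Cald1. Of these markers 9 were tested and 6 fell, and Tagln, a defining one, had at most 11 counts in a library. Heart and striated muscle markers are given above. Of 12 macrophage markers, cells rich in lysosomes, 5 were tested, with 1 higher (Cd68) and 1 lower (Cd14). Their sum was 62.6 to 68.8 CPM in controls and 59.7 to 64.1 CPM in knockdowns, mostly Csf1r and Cd14. The defining Adgre1, Itgam and Ptprc had at most 2, 4 and 9 counts in any library. Osteoclast markers summed to 42.5 to 46.7 CPM in controls and 55.2 to 59.9 CPM in knockdowns, nearly all of it Nfatc1, with Calcr at 0. Of 6 tested endothelial markers 5 fell and 1 (Vwf) rose, and the list of 8 summed to 9.55 to 12.3 CPM in controls and 4.96 to 6.92 CPM in knockdowns. Of 7 fibroblast markers 2 rose (Pdgfra and Pi16) and 3 fell (Dpt, Ly6a and Col1a1). The list summed to 2258 to 2424 CPM in controls and 1783 to 1954 CPM in knockdowns, mostly Col1a1. The part of these cell types in the changes of the lysosomal genes was not tested.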

How the data were processed

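The authors deposited raw read counts, 1 whole number for each gene and library, with no normalization. Per the submitters' processing notes the build was mm10 and DESeq2 was used. The sources used here name no aligner, counting tool, annotation or strand setting, so reads of overlapping genes on both strands cannot be told apart. Between 72% and 74.2% of counts from 1 to 40 were even, as when both reads of a pair are counted. Symbols, positions and exon lengths came from GENCODE M21, of the same build (30008 of 30660 identifiers matched). Promoter windows were RefSeq's (GRCm38.p6).

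In R 4.3.3, edgeR 4.0.16 was run with TMM scaling, filterByExpr (minimum count 10, 16150 genes kept), glmQLFit and glmQLFTest over all 8 libraries without a covariate. Benjamini-Hochberg adjustment covered all tested genes, and an adjusted p under 0.05 was called. The SE is the log2 fold change divided by the root of the F statistic. TPM used counts over joint exon length. The fit was first tested on simulated data. Alternatives were 3 other scalings, 3 other filters, DESeq2 1.42.0, limma-voom (limma 3.58.1), the replicate number as a block, halved counts, a threshold of 0.01, and leaving out each library. The members, substrate classes, other lists and tests were chosen with earlier results of these data known. Libraries are printed for members with the smallest p or the largest change in a class, for the largest p in a class, and for all that fell, changed call or sign under an alternative, or had a library far from its group; Asah1, Hexa, Arsa and Galns were printed outside this rule, after their values were seen. No protein sequences were used here, and some single genes of the other lists are not reported here.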

Additional observations from a re-analysis of the deposited data

Results flagged for a closer look

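In 6 of the 68 groups of 4 libraries (34 genes in 2 groups), 1 library lay far from the other 3 relative to the range, where chance gives about 1 in 20. Control replicate 3 was the low library for 3 of them, with Manba at 49.2 CPM, Ppt1 at 89.8 CPM and Sumf1 at 66.8 CPM, none of which passed the test between the groups. Knockdown replicate 2 was high for Galc, at 20.1 CPM, and for Hgsnat, at 50.7 CPM. Knockdown replicate 1 was high for Glb1, at 71.6 CPM. Without knockdown replicate 2 the log2 fold change of Galc was 0.48 (edgeR adjusted p = 3.78e-05) and that of Hgsnat 0.20 (adjusted p = 0.00301). Without knockdown replicate 1 that of Glb1 was 0.22 (adjusted p = 0.00154). These 3 genes remained past the threshold.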

How the results depend on the processing

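Of the 34 genes, 24 kept both their direction and their side of the threshold under all 18 alternative fits, 20 of them among the 22 that rose, all 3 that fell, and Galns. The number that rose was 21 with DESeq2 size factors, with DESeq2 and without a filter, 24 with upper quartile scaling, 18 at an adjusted p of 0.01 and 20 to 22 when 1 library was left out, and the number that fell was 3 to 4 throughout. The median log2 fold change of the members moved to 0.34 with total count scaling, which raised the median of all genes as well (0.12). Signs turned for genes that had not passed: the log2 fold change of Ppt1 was 0.0149 with upper quartile scaling, 0.0766 with total count scaling and between -0.0493 and 0.00605 when 1 library was left out (above 0 without knockdown replicate 4), and with total count scaling that of Lipa was 0.0417 and that of Sgsh 0.0358. The cause of these shifts was not tested. The Sox6 ratio ran from 0.107 to 0.295 when 1 library was left out, where 3 against 4 libraries cannot give an exact p below 0.0571. With the replicate number as a block, 21 members rose and 3 fell, and Gusb lost its call (adjusted p = 0.0685). Libraries of the same number did not deviate together from their group means (correlations -0.07 to 0.07 over genes, and not every library correlated best with its own number). Deviations from means of 4 libraries cannot decide whether libraries of the same number shared a culture or an animal, which the sources used here do not state. With counts halved, as if both reads of a pair had been counted, 22 rose and 3 fell. Depth limits the value of Sox6, with 32 counts in all.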

Other observations

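The promoter windows were also searched, on both strands, for AACAAT, a core of the sequence that Sox proteins bind. It was found in 4 of 30 members (13.3%), against 7.12% of the 10948 tested genes with windows. Of these 4, Hexa, Psap and Pla2g15 rose and Ppt1 did not pass, where 19 of all 30 members with a window rose, 3 fell and 8 did not pass. Shares that rest on 4 genes are rough, and no test was run on them. None of them was among the 8 with CACGTG. A match says nothing of binding, and sites outside these windows were not searched.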
